A study of Mus musculus with 4 samples.

Results

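Keratins form the intermediate filaments of epithelial cells, and a filament is built from pairs of 1 type I and 1 type II chain. Hepatocytes make the type II chain Krt8 and the type I chain Krt18 as their filament pair, while bile duct cells (cholangiocytes) also make Krt7 and Krt19. Injured or cholestatic livers can show a ductular reaction, in which small duct-like cells with these keratins and with Epcam, Sox9 and Cd24a become more numerous. The genes examined were the keratins Krt8, Krt18, Krt7, Krt19 and Krt23 and the duct-associated genes Epcam, Sox9 and Cd24a. They were chosen by symbol, and all 8 were found among 24346 gene symbols.

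Hepatic expression was measured by RNA sequencing in male ob/ob mice, which lack leptin and become obese, after 4 weeks of feeding that began at 6 weeks of age. The 4 groups were CD, CD+7KC, WD and WD+7KC. CD is named normal chow in the labels and, in the study's methods, regular chow with 1% cholesterol. WD is a western type, high fat diet that also holds 1% cholesterol, and 7KC (7-ketocholesterol, an oxidized cholesterol) made up 0.01% of the supplemented diets. Thus every group, CD included, carried the ob/ob genotype and received added cholesterol. Each group had 1 library, and the number of mice behind a library is not given in the sources used here. Differences could therefore not be set against the spread between animals, and p-values are not used.

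Levels are the deposited FPKM values, in which fragments are scaled by transcript length and by sequencing depth. The spacing of the smallest FPKM values, each step being 1 read, gave estimates of 9430000 to 12120000 fragments per library. The FPKM values summed to 602059 in WD+7KC and to between 696062 and 715605 in the other libraries. For single genes, exact (Clopper-Pearson) 95% intervals of the ratio of 2 libraries were computed from the estimated reads. These counting intervals cover the sampling of reads only and not the variation between mice. In whole liver, fewer cells of a type and less RNA per cell cannot be told apart.

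Krt8 (chromosome 15, 101996698 to 102004482, GRCm38, minus strand, 9 exons) and Krt18 (chromosome 15, 102028180 to 102032027, plus strand, 7 exons) lie head to head. Their annotated starts are 23.7 kb apart, with 0 annotated genes lying wholly between them. Krt7 (chromosome 15, 101411043 to 101430313) is in the same cluster, which holds the type II keratins and, as its only type I gene, Krt18. Krt19 (chromosome 11, 100140810 to 100148665) and Krt23 (chromosome 11, 99477974 to 99493137) belong to the type I cluster. Epcam (chromosome 17, 87635979 to 87651129), Sox9 (chromosome 11, 112782224 to 112787760) and Cd24a (chromosome 10, 43578284 to 43584265) are elsewhere.

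Promoter sequences from RefSeq (GRCm38.p6) were found for 5 of the 8 genes, namely Krt8, Krt18, Krt7, Krt23 and Epcam. The windows of Krt8 and Krt18 are shown because these genes are the filament pair of the hepatocyte, and that of Krt23 because its levels followed another order across the libraries. Each window runs 5′ to 3′ from 250 bases before the RefSeq start to 30 bases after it. For Krt8 this start lies downstream of the GENCODE start given above. Capitals mark the motifs that were found.
Krt8, chr15:102004313-102004592, minus strand: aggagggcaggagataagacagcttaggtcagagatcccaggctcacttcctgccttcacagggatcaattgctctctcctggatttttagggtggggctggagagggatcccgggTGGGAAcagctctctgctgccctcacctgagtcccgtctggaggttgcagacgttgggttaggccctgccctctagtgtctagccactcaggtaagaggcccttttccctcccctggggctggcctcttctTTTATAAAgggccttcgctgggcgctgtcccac
Krt18, chr15:102027966-102028245, plus strand: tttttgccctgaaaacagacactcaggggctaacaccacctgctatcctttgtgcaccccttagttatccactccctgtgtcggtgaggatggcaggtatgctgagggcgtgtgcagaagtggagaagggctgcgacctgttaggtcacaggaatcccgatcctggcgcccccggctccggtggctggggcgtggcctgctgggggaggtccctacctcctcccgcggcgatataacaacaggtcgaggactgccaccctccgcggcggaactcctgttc
Krt23, chr11:99493091-99493370, minus strand: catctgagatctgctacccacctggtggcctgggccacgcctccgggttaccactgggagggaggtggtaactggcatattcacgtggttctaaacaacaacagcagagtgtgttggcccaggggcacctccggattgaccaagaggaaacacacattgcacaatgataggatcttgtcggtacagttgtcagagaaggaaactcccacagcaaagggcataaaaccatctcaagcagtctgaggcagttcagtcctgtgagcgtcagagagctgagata

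Both strands of the windows were searched for 5 motifs. The TATA box was searched as TATAAA, which 13.1% of 32851 promoters of this window hold. The GC box was searched as GGGCGG, which 34.7% hold, and the AP-1 site as TGANTCA, which 7.46% hold. The core bound by RBPJ, the DNA-binding partner of Notch, was searched as TGGGAA, and 23.8% hold it. The core bound by the TEAD factors of the Hippo pathway was searched as GGAATG, and 13.9% hold it. Krt8 held the RBPJ core 134 bases before the start, and the TATA box letters on both strands, overlapping, at the start itself. Krt18 and Krt23 held none of the 5 motifs in these windows, while Krt7 held 4 GC boxes and Epcam held 1. These matches are letters and not measured binding sites.

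Krt8 and Krt18 dominated the keratin transcripts of these livers. Krt8 was at 439 FPKM in CD against 295 in CD+7KC, and 355 in WD against 497 in WD+7KC, which placed it between rank 162 and rank 335 of all genes. Krt18 was at 260 FPKM in CD against 162 in CD+7KC, and 247 in WD against 347 in WD+7KC. Both genes were thus highest in WD+7KC and lowest in CD+7KC, with 1.68-fold between the extremes for Krt8 and 2.14-fold for Krt18. For Krt8, each library differed from its neighbour in this order beyond counting error. For Krt18 the same held except for CD and WD, whose log2 ratio of 0.07 had an interval that reached 0.

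The remaining keratins among these genes were far less abundant. Krt23, a type I keratin that is low in healthy liver and known to increase in liver injury, was at 2.86 FPKM in CD against 5.83 in CD+7KC, and 1.90 in WD against 1.91 in WD+7KC. It was highest in the library in which Krt8 and Krt18 were lowest. Krt19, a type I keratin of bile duct cells, was at 1.09 FPKM in CD against 0.774 in CD+7KC, and 0.632 in WD against 0.773 in WD+7KC. These values came from at least 14, 10, 7 and 11 estimated reads. Krt7, its usual type II partner in ducts, was at 0.657, 0.459, 0.535 and 0.476 FPKM in the same order, from at least 10, 7, 7 and 8 reads. For both genes even the highest and the lowest library did not differ beyond counting error at these read numbers.

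Of the duct-associated genes, Cd24a showed the widest range. Cd24a, a small glycosylated surface protein of duct cells and of several blood cells, was at 1.92 FPKM in CD against 0.898 in CD+7KC, and 2.36 in WD against 3.26 in WD+7KC, from 34, 16, 36 and 64 reads. The 3.63-fold range from CD+7KC to WD+7KC was larger than counting error, also with these read numbers divided by 2. Sox9, a transcription factor of duct cells and of progenitor-like hepatocytes, was at 1.01 FPKM in CD against 0.757 in CD+7KC, and 0.401 in WD against 0.562 in WD+7KC, from 44, 33, 15 and 27 reads. Its order followed the diet, with both CD libraries above both WD libraries, although no neighbours in this order differed beyond counting error. Epcam, the epithelial cell adhesion molecule of duct cells, was at 1.03, 0.731, 0.853 and 1.06 FPKM, from at least 14, 10, 10 and 16 reads, and its highest and lowest libraries did not differ beyond counting error.

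**Figure D1:**
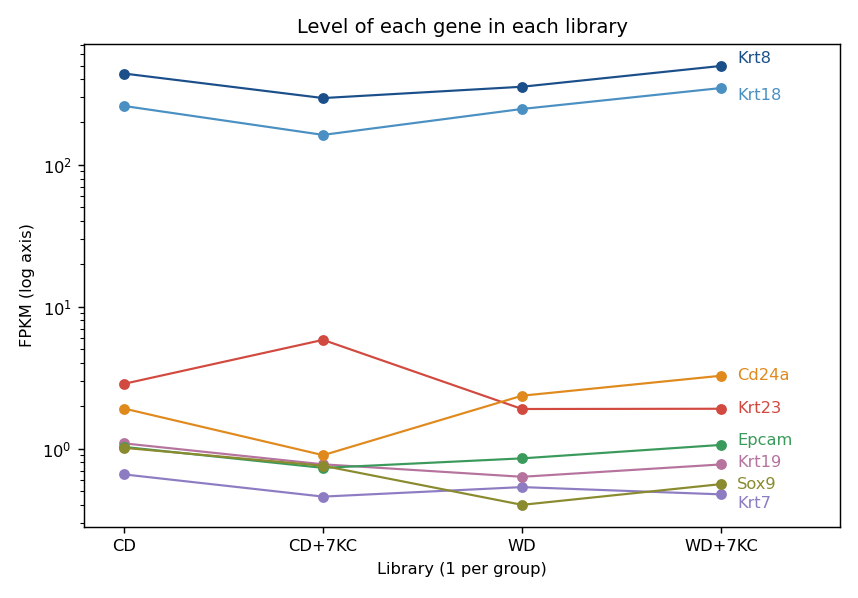
Level of the 8 genes (FPKM, log axis) in the 4 libraries, 1 point per gene and library, with lines joining the points of a gene. Krt8 and Krt18 lie between 162 and 497 FPKM and every other gene below 6 FPKM, and Krt23 peaks in CD+7KC where Krt8, Krt18 and Cd24a are lowest.

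In all, 5 of the 8 genes were lowest in CD+7KC, and the other 3 (Krt19, Krt23 and Sox9) were lowest in WD. The highest library was WD+7KC for 4 genes, CD for 3 and CD+7KC for Krt23. Krt8, Krt18, Epcam and Cd24a were both lowest in CD+7KC and highest in WD+7KC, an order found in 9.2% of the genes above 0 FPKM. Krt23 was lowest in WD and highest in CD+7KC, as were 7.06% of those genes. In both shares, genes tied at 0 FPKM were assigned to the first tied library in the order CD, CD+7KC, WD and WD+7KC. Shares of all genes for the lowest or the highest library alone were not computed, so those counts have no background beside them.

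The first question was whether 7KC went with different levels of these genes when added to CD. All but Krt23 were lower in CD+7KC than in CD, while 49.3% of 15684 genes were higher. The median of the 8 log2 fold changes was -0.44, beside -0.001 over all these genes. Log2 fold changes were computed from FPKM + 0.1, which understates the change of low genes. Krt8 had -0.57, with a 95% interval from -0.62 to -0.53. Krt18 had -0.68 (-0.75 to -0.60). Only 7.3% of genes had a lower value than Krt8 in this comparison, and 5.6% a lower value than Krt18. Cd24a was at -1.01 (-2.05 to -0.20) and Krt23 at 1.0 (0.48 to 1.60). These were the genes past a log2 fold change of 1 in either direction, Krt23 among the 3.84% of all genes above 1 and Cd24a among the 2.91% below -1. Both lay close to the threshold. All 4 read numbers of Cd24a are even, so that 17, 8, 18 and 32 reads, at a shorter transcript, are also possible, and the interval would then run from -2.51 to 0.20 and include 0. Krt7, Krt19, Epcam and Sox9 had values between -0.44 and -0.38, and all their intervals included 0.

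The second question was the same under WD. Here 7 of the 8 genes were higher with 7KC, as were 50.2% of 15753 genes. The median of the 8 log2 fold changes was 0.34, beside 0.002 over all these genes. Krt8 was higher by 0.49 (0.44 to 0.53) and Krt18 by 0.49 (0.42 to 0.56). Cd24a had 0.45 (-0.14 to 1.10), Sox9 0.40 (-0.48 to 1.5), Epcam 0.29 (-0.91 to 1.62) and Krt19 0.25 (-1.21 to 1.90), all with intervals that included 0. Krt23 was nearly level at 0.01 (-0.81 to 0.84). Krt7 was at -0.14, which became 0.04 once FPKM values were scaled to the same sum in each library (TPM). This rescaling moved the median of all genes in this comparison to 0.21, and Krt8 then had 0.70 and Krt18 0.71. None of the 8 genes passed a log2 fold change of 1 in either direction, where 6.21% of all genes were above 1 and 2.79% below -1.

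Set side by side, 6 of the 8 genes (Krt8, Krt18, Krt19, Epcam, Sox9 and Cd24a) were lower with 7KC under CD and higher with 7KC under WD. Of all genes above 0 in both comparisons, 23.7% had this pair of signs, or 21.8% of those averaging 1 FPKM or more. Only for Krt8 and Krt18 did the counting intervals lie on opposite sides of 0. The difference between the log2 changes under WD and CD was 1.06 for Krt8, 1.17 for Krt18 and -1.0 for Krt23. With 1 library per group this difference between diets was not tested.

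**Figure D2:**
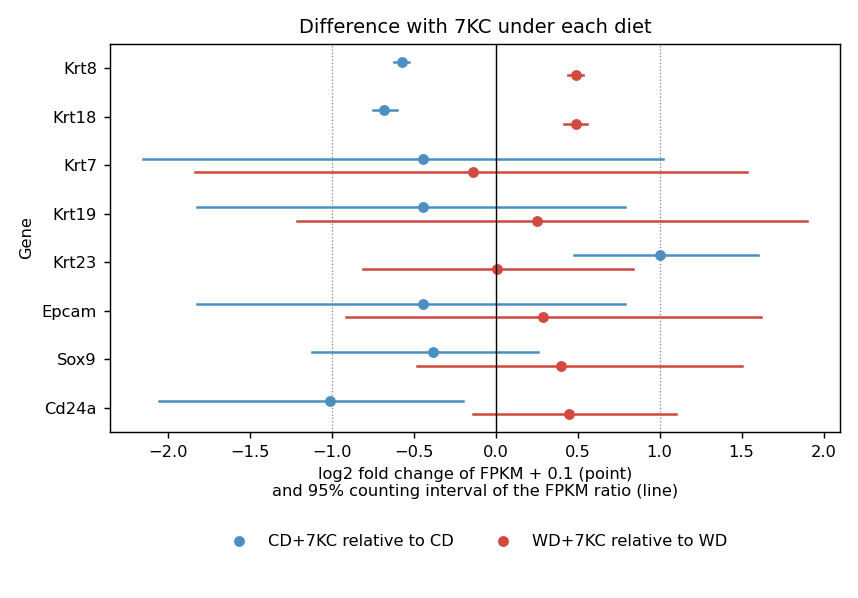
Log2 fold change with 7KC for each gene, under CD (blue) and under WD (red). Points are computed from FPKM + 0.1, horizontal lines are 95% counting intervals of the FPKM ratio (counting error only), and dotted lines mark -1 and 1. The intervals of Krt8 and Krt18 are narrow and lie below 0 under CD and above 0 under WD, while those of Krt7, Krt19, Epcam and Sox9 span 0 under both diets.

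Because a keratin filament needs both types of chain, the ratio of Krt8 to Krt18 was compared between libraries. It was 1.69 in CD against 1.82 in CD+7KC, and 1.43 in both WD and WD+7KC, on the FPKM scale. Under WD the ratios with and without 7KC differed by less than counting error, with an interval of the log2 difference from -0.08 to 0.08. Under CD it was higher with 7KC by 0.10 on the log2 scale (0.01 to 0.19). Between the diets it was lower in WD than in CD by a log2 difference of -0.24 (-0.33 to -0.15), and in WD+7KC than in CD+7KC by -0.34 (-0.43 to -0.26). These intervals use a normal approximation to the estimated reads, and again cover counting error only.

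Krt8 and Krt18 together made up 97.7% to 99.2% of all keratin FPKM. Their share was lowest in CD+7KC, where Krt23 was highest. The ratio of Krt23 to Krt19 was 2.63 in CD against 7.53 in CD+7KC, and 3.0 in WD against 2.47 in WD+7KC. The tables list 47 other keratin symbols, of which 39 were at 0 FPKM in every library. Of these others 1 averaged 1 FPKM or more, Krt20, a type I keratin of gut epithelium, with 0.526 FPKM in CD against 1.89 in CD+7KC, and 0.612 in WD against 1.71 in WD+7KC. Krt20 was thus higher with 7KC under both diets, with log2 fold changes of 1.67 and 1.35. Krt8 and Krt18 were higher under WD only. Of all genes, 3.84% were above 1 under CD and 6.21% under WD. Reads and counting intervals were not estimated for Krt20, which was low in every library.

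**Figure D3:**
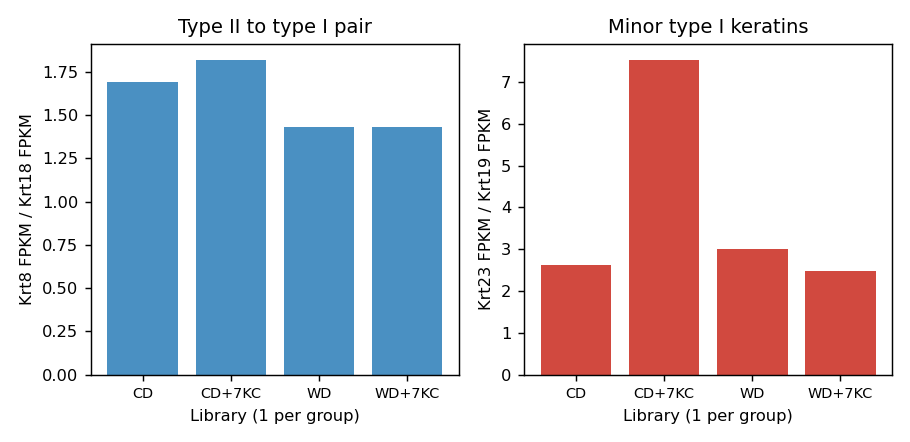
Ratio of Krt8 to Krt18 (left) and of Krt23 to Krt19 (right) in each library, both from FPKM, with bars starting at 0. The first ratio is 1.43 in both WD libraries and 1.69 and 1.82 in the CD libraries, and the second is 7.53 in CD+7KC and at most 3.0 elsewhere. The second ratio rests on an estimated 7 to 14 Krt19 reads per library, the smallest set possible.

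The diets were also compared directly. Without 7KC, 7 of the 8 genes were lower in WD than in CD, where 50.9% of all genes were higher. The median of the 8 was -0.28, beside 0.010 over all genes. Sox9 was at -1.15 (-2.29 to -0.46), the only one of the 8 past 1 in either direction, where 4.38% of all genes were below -1 and 5.31% above 1. Krt8 was at -0.31 (-0.36 to -0.26) and Krt18 at -0.07 (-0.14 to 0.00). Cd24a was higher in WD, at 0.29, with an interval from -0.42 to 1.02.

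With 7KC in both diets, 5 of the 8 genes were higher in WD+7KC than in CD+7KC, as were 50.2% of all genes. The median of the 8 was 0.26, beside 0.003 over all genes. Cd24a was higher in WD+7KC than in CD+7KC by a log2 fold change of 1.75 (1.05 to 2.75), Krt18 by 1.10 (1.03 to 1.17) and Krt8 by 0.75 (0.71 to 0.80). Krt23 was lower, at -1.56 (-2.25 to -1.0). Of the 8 genes 2 were thus above 1 and 1 was below -1, where 8.01% of all genes were above 1 and 4.61% below -1. The other values were 0.48 for Epcam, 0.04 for Krt7, -0.00 for Krt19 and -0.37 for Sox9, all with intervals that included 0. The sign of Krt19 turned after rescaling to equal sums (0.19) or to the upper quartile (0.04). Equal sums moved the median of all genes in this comparison to 0.205, and Krt8 then had 0.96 and Krt18 1.31. These comparisons use the same libraries as those with 7KC and are not independent of them. Beside the diet differences, the red-cell genes Hbb-bs and Alas2 also separated the diets, in opposite directions. Hbb-bs, a beta-globin, was at 0.00604 FPKM in CD and 0.00593 in CD+7KC but at 13.5 in WD and 10.4 in WD+7KC, and its reads can be divided with near-identical copies. Alas2, of heme synthesis, was at 86.5 and 81.3 FPKM in the CD libraries and at 30.9 and 23.3 in the WD libraries. Whether the mice of both diets shared a genetic background, and the part of these genes in any difference between diets, was not tested.

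**Figure D4:**
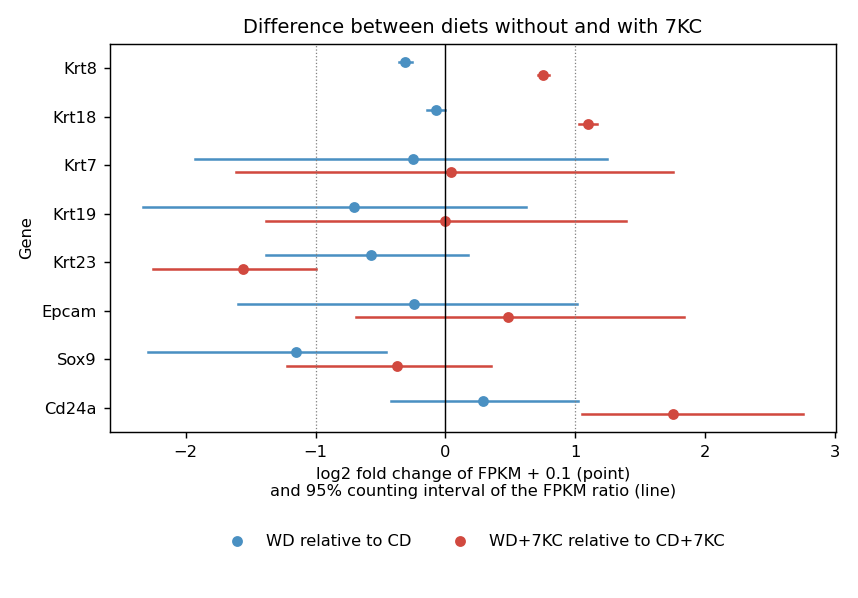
Log2 fold change between diets for each gene, without 7KC (WD relative to CD, blue) and with 7KC (WD+7KC relative to CD+7KC, red), drawn as in the plot of differences with 7KC. With 7KC in both diets Krt8 lies at 0.75, Krt18 at 1.10, Cd24a at 1.75 and Krt23 at -1.56, and Sox9 lies at -1.15 without 7KC.

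Other genes of the ductular program were examined as a list of 24, of which 10 averaged 1 FPKM or more. Among those that mark bile duct cells, Cftr (a chloride channel) reached 0.0149 FPKM and Sctr (the secretin receptor) 0.123 FPKM, both near 0. Of the 22 genes above 0 FPKM under WD, 17 were higher with 7KC, and the median was 0.23 (0.44 after rescaling, 0.08 with a pseudocount of 1). Under CD, 10 were higher and 13 lower, and the median was -0.01, which became 0.03 after rescaling to equal sums and -0.13 over genes with at least 1 FPKM in CD or CD+7KC. Among genes of this list averaging 1 FPKM or more, Aqp1 had the largest value in both comparisons. Aqp1, a water channel of duct cells and also of endothelium, was at 18.2 FPKM in CD against 27.6 in CD+7KC, and 14 in WD against 50.9 in WD+7KC. Under CD the lowest was Spp1 (osteopontin), which duct cells secrete and macrophages also make, with 98.7 FPKM in CD against 43.7 in CD+7KC, and 124 in WD against 183 in WD+7KC. Lcn2 (lipocalin 2), made by hepatocytes as an acute-phase protein as well as by ducts, had the largest difference between WD and CD, with 52.3 FPKM in CD and 155 in WD.

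Notch signalling and the Hippo pathway bear on whether hepatocytes take on a duct-like state. A list of 17 genes was examined, the TWEAK ligand and receptor among them. Under CD, 13 of 17 were lower with 7KC (median -0.21). Under WD, 10 of 17 were higher (median 0.27). The median under WD was 0.09 with a pseudocount of 1, 0.11 over the 15 genes with at least 1 FPKM in WD or WD+7KC, and 0.48 after rescaling. The largest difference under CD was in Tnfrsf12a, the TWEAK receptor, with 42.4 FPKM in CD against 17.3 in CD+7KC, and 34.4 in WD against 52.7 in WD+7KC. This is the order of Krt8, Krt18 and Epcam across the 4 libraries. Hes1, a Notch target, had 7.29, 4.79, 6.44 and 10.8 FPKM in these libraries, the same order again, and was the highest of the list under WD. Of the 17 genes, 4 were lowest in CD+7KC and highest in WD+7KC, beside 9.2% of all genes above 0 FPKM. Ctgf, a target of YAP, was the lowest under WD, with 14.5 FPKM in WD and 8.59 in WD+7KC.

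Keratin filaments attach to desmosomes through plakins, and misfolded Krt8 and Krt18 collect with p62 (Sqstm1) and ubiquitin in Mallory-Denk bodies. Of 13 junction and plakin genes, 10 were lower with 7KC under CD (median -0.06), while 6 were higher and 7 lower under WD (median -0.01, or 0.19 after rescaling). Ppl (periplakin) was the highest of the list with 7KC under both diets, with 3.07 FPKM in CD against 4.42 in CD+7KC, and 4.65 in WD against 7.71 in WD+7KC. Cdh1 (E-cadherin) was the lowest under both, with 2.2, 0.945, 6.19 and 3.9 FPKM. Of 10 Mallory-Denk body and stress genes, 5 were higher and 5 lower under CD (median -0.01, or 0.03 after rescaling), and 6 higher and 4 lower under WD (median 0.14, or 0.36 after rescaling). Over genes with at least 1 FPKM in CD or CD+7KC the median under CD was -0.18. Sqstm1 itself was at 373 FPKM in CD against 280 in CD+7KC, and 306 in WD against 335 in WD+7KC. It was thus lowest, as Krt8 was, in CD+7KC, but highest in CD.

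The markers of other liver cells were placed beside these values, and their part in them was not tested. Hepatocyte markers were lower with 7KC for 10 of 11 genes under each diet, with medians of -0.17 under CD and -0.26 under WD (-0.05 after rescaling). Macrophage markers had medians of 0.63 under CD and 1.13 under WD, with 9 and 12 of 12 genes higher, and their summed level was 80.4 FPKM in CD against 149 in CD+7KC, and 174 in WD against 364 in WD+7KC. The median of neither list had the pair of signs shown by Krt8 and Krt18. Among the single genes, 1 of 11 hepatocyte markers and 3 of 12 macrophage markers (Itgam, Ccr2 and Trem2) had this pair. Of all genes above 0 in both comparisons, 23.7% had it. Stellate cell markers, which come from a cell type that can also make Sox9, were lower under CD for 8 of 10 genes (median -0.59) and higher under WD for 6 of 10 (median 0.07, or 0.28 after rescaling). Of the 10 stellate cell genes, 5 had the pair of signs of Krt8 and Krt18, beside 21.8% of genes averaging 1 FPKM or more. Col1a1 had the lowest log2 fold change of this list under CD. Its level was 8.23 FPKM in CD against 3.4 in CD+7KC, and 7.86 in WD against 9.52 in WD+7KC. Lrat had the opposite signs, at 4.46 FPKM in CD against 4.88 in CD+7KC, and 7.52 in WD against 6.36 in WD+7KC.

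Markers of cells that can carry Cd24a or keratins but are minor in liver were low, with exceptions. B cell markers summed to between 1.84 and 3.53 FPKM over 6 genes, and were highest in CD+7KC, where Cd24a was lowest. Mesothelial markers, from a cell type that makes Krt7, Krt8, Krt18 and Krt19, summed to 1.17 FPKM in CD against 0.568 in CD+7KC, and 0.601 in WD against 2.05 in WD+7KC. Their medians were -0.66 under CD and 1.56 under WD, the signs of Krt8 and Krt18, and their part in these was not tested. All these genes averaged under 1 FPKM, and the medians became -0.08 and 0.26 with a pseudocount of 1. Under CD, 3 of 5 were lower and 2 higher, and under WD 5 of 6 were higher and 1 lower. Of the 5 mesothelial genes above 0 FPKM in both comparisons, 2 were lower with 7KC under CD and higher under WD. Of all genes above 0 in both, 23.7% had this pair of signs. Among the mesothelial markers, Upk3b was above 0 in WD+7KC alone, at 0.179 FPKM. Msln was at 0.0475, 0.189, 0.0552 and 0.644 FPKM. Pancreatic acinar markers summed to at most 0.59 FPKM, and 6 of 8 were at 0 in all libraries. Neutrophil markers summed to between 15 and 21.6 FPKM, mostly S100a8 and S100a9. Erythroid markers summed to between 104 and 191 FPKM and were lowest in WD+7KC. Gut epithelial markers summed to between 215 and 296 FPKM, of which Fabp2 made up 208 to 289, while the defining genes Cdx1 and Cdx2 were at 0 in all libraries. Reads of Hba-a1 and of the beta-globin genes are shared with near-identical copies.

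**Figure D5:**
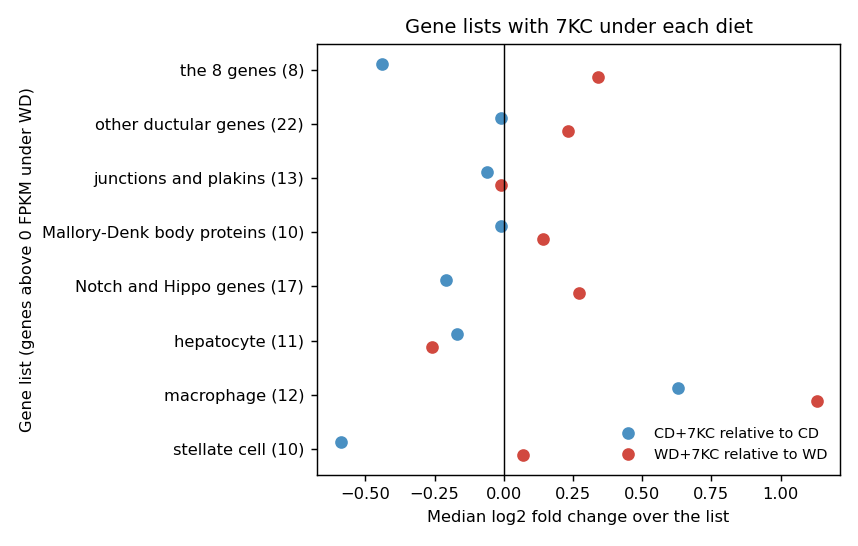
Median log2 fold change with 7KC of the 8 genes and of 7 gene lists, under CD (blue) and WD (red), with the number of genes above 0 FPKM under WD in brackets. The medians of the 8 genes are -0.44 and 0.34 and those of the Notch and Hippo genes -0.21 and 0.27, while the macrophage medians are above 0 and the hepatocyte medians below 0 under both diets.

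Genes with the most similar pattern were sought for Krt8, Krt18, Krt23 and Cd24a, which average over 1 FPKM, among all genes averaging 1 FPKM or more. The measure was the Euclidean distance between log2 profiles centred over the 4 libraries, so that 0 means the same folds in every library. The nearest to Krt8 were Ralgds, Selm and Plac8, at distances of 0.106 to 0.109. The nearest to Krt18 were Serpinh1 (the collagen chaperone HSP47) at 0.079, the chemokine receptor Cxcr4 at 0.085 and Sertad1 at 0.110. Krt8 ranked 65th from Krt18, at a distance of 0.301, so that the filament partners were not each other's nearest genes. The nearest to Cd24a were Tuft1 at 0.145, Spp1 at 0.223 and Serpinb6b at 0.229. The nearest to Krt23 were the water channel Aqp4 at 0.134, the glutathione transferase Gsta2 at 0.178 and Lime1 at 0.252. Gsta2 was at 83.9 FPKM in CD against 164 in CD+7KC, and 49.8 in WD against 59.1 in WD+7KC, the same order as Krt23. With 4 libraries such likeness is a description only.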

How the data were processed

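Liver RNA of ob/ob mice was sequenced in 4 groups of 1 library each. The authors used a stranded mRNA kit and single-end reads, mapped these to mm10 with TopHat2 2.0.13, Bowtie2 2.2.3 and SAMtools 0.1.19, and deposited FPKM values from Cufflinks 2.2.1, per the submitters' processing notes and the methods. The gene annotation and the Cufflinks options are not given in the sources used here.

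Log2 fold changes were computed from the deposited FPKM values after adding a pseudocount of 0.1. Genes at 0 FPKM in both libraries of a comparison were left out. Changes past 1 on the log2 scale (2-fold) were counted. Lists are described by counts and medians.

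Depth was estimated as the number of fragments that brought low FPKM values closest to whole reads, over 11741 genes having 1 RefSeq mRNA longer than 1000 bases, with the transcript length (GENCODE vM21, GRCm38) minus 200 bases. It gave 10965000 fragments for CD, 11000000 for CD+7KC, 9430000 for WD and 12120000 for WD+7KC, and 72.1% to 73.4% of low values then lay within 0.1 of a whole number. For the low genes, the reads are those that were whole within 0.05 in all libraries, at a length within 1% of the listed mRNA (Sox9, Cd24a) or otherwise at the shortest length that holds the coding sequence (Krt7, Krt19, Krt23, Epcam). For these 4 genes a larger set, at a longer transcript, is possible, and for Cd24a the read numbers divided by 2, an alternative chosen after seeing the data. Reads of Krt8 and Krt18 used the listed length, and reads from unlisted copies such as the pseudogene Krt8-ps could be included. These rules were chosen with the values in view.

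The 8 genes and all lists were chosen with earlier results of these data known. Named genes were the 8, each list's largest and smallest change with 7KC among those averaging 1 FPKM or more (and some between diets), keratins at that level, the first markers of other cell types and the 3 genes of most similar pattern. Not all named by this rule are printed, and Cftr, Sctr, Sqstm1 and Upk3b were named outside it. Alternatives changed the pseudocount, the filter, the scaling and the threshold. The code was tested on simulated data. Python 3.11.15, numpy 2.4.6, pandas 2.3.3, scipy 1.17.1 and matplotlib 3.10.9 were used.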

Additional observations from a re-analysis of the deposited data

Results flagged for a closer look

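In 6 of the 8 genes, the library with 7KC was lower than its control under CD and higher under WD. The difference between the log2 fold change under WD and that under CD was 1.06 for Krt8, 1.17 for Krt18, 0.69 for Krt19, 0.72 for Epcam, 0.78 for Sox9 and 1.46 for Cd24a. With 1 library per group, the difference between diets was not tested. The counting intervals of Krt8 and Krt18 lay on opposite sides of 0. That of Cd24a included 0 under WD only, or under both diets with its read numbers divided by 2, and those of Krt19, Epcam and Sox9 included 0 under both.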

How the results depend on the processing

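The median log2 fold change of the 8 genes kept its sign under every alternative for pseudocount, filter and scaling. It ranged from 0.16 to 0.56 for 7KC under WD, from -0.51 to -0.23 for 7KC under CD, from -0.31 to -0.22 for WD relative to CD, and from 0.13 to 0.75 for WD+7KC relative to CD+7KC. The number of genes past the threshold in CD+7KC relative to CD was 2, and became 0 with a pseudocount of 1, 1 after rescaling to equal sums, 1 after upper-quartile scaling and 0 at a 4-fold threshold, since Krt23 and Cd24a lie close to 2-fold. In WD relative to CD it was 1, and became 0 with a pseudocount of 1, 2 at a 1.5-fold threshold and 0 at a 4-fold threshold. In WD+7KC relative to CD+7KC it was 3, and 0 at a 4-fold threshold.

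Of 216 alternative values of the single genes' changes, 3 turned in sign, those of Krt7 and Krt19 given above, none of them from a change larger than 0.14. No paired analysis was possible because each group has 1 library, and for the same reason no library could be left out. Values of Krt7, Krt19 and Epcam rest on an estimated 7 to 16 reads per library, which are the smallest sets possible. The sequencing depth limits what these values can show.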

Other observations

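Of the 24 other ductular genes, 14 had a mean under 1 FPKM, and their values are given here without counting intervals. Onecut1, a transcription factor of duct development, was at 1.18 FPKM in CD against 0.615 in CD+7KC, and 0.913 in WD against 1.22 in WD+7KC, the order of Krt8 and Epcam. Of the 24 genes, 6 were lowest in CD+7KC and highest in WD+7KC, beside 9.2% of all genes above 0 FPKM. Cldn4 and Cldn7, tight junction claudins of ducts, were low throughout. Cldn4 was at 0.339, 0.0563, 0.131 and 0.153 FPKM and Cldn7 at 0.580, 0.462, 0.135 and 0.223 FPKM in CD, CD+7KC, WD and WD+7KC, so that Cldn7 but not Cldn4 was higher under CD than under WD both without and with 7KC. Elf3, an epithelial transcription factor, was lower under CD than under WD both without and with 7KC. It was at 0.261 FPKM in CD against 0.353 in CD+7KC, and 0.669 in WD against 0.709 in WD+7KC. Sox4, a relative of Sox9 with a mean just above 1 FPKM, was at 0.561, 0.756, 1.07 and 2.06 FPKM in the same order of libraries. Pkhd1 (fibrocystin), a ciliary protein of duct cells, varied little, from 0.538 to 0.667 FPKM. The genes of this paragraph were chosen after their values were seen.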
